A study of Saccharomyces cerevisiae with 4 samples.

Results

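The 26S proteasome is described here through 32 of its subunits, chosen by their systematic ORF names. They are the 7 alpha and 7 beta subunits of the 20S core, the 6 RPT ATPases, and 12 RPN subunits (*RPN1*, *RPN2*, *RPN3* and *RPN5* to *RPN13*). All 32 were among the 5371 ORFs of the table, and all 32 passed the filter on low values. Ribosome profiling, which sequences the mRNA fragments that ribosomes protect (footprints), had been carried out on 2 libraries of *dbp1Δ* cells and on 2 libraries of wild-type cells, all diploids of the fast-sporulating SK1 strain of budding yeast. In the *dbp1Δ* strain the ORF of *DBP1*, which encodes a DEAD-box RNA helicase, had been excised with Cas9 and no marker put in its place. All cultures were collected 6 h after the move to sporulation (SPO) medium and had been given cycloheximide shortly before freezing. Levels are RPKM, footprint reads per kilobase of ORF scaled to the mapped reads of the library, a unit that allows genes of different length to be compared within a library. A footprint RPKM combines the amount of an mRNA with how heavily it was translated, and these cannot be told apart from footprints alone.

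The proteasome degrades proteins that carry ubiquitin chains. Its 20S core is a barrel of stacked rings, with outer rings of alpha subunits that form a gate and inner rings of beta subunits that hold the proteolytic sites. The regulatory particle caps the barrel: RPT ATPases form a ring that unfolds substrates and threads them through the gate, and RPN subunits bind ubiquitin, remove it and hold the particle together. Each of these subunits occupies a fixed place in the complex. In yeast the transcription factor Rpn4 acts on most proteasome genes, and in meiosis the proteasome has been linked to chromosome pairing and to the timed removal of regulators.

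The libraries came from 5789190 and 4971131 reads for *dbp1Δ* replicates 1 and 2, and from 5294779 and 4619180 reads for wild-type replicates 1 and 2, as recovered from the steps in the RPKM values. *DBP1* had 0.578 and 0.449 RPKM in the *dbp1Δ* libraries, against 164 and 147 RPKM in the wild-type libraries (log2 fold change -7.27, limma adjusted p = 4.40e-06), as the labels require. All 10 meiotic marker genes examined had footprints in every library, at 54.8 RPKM or more, and their summed level was 11209 and 10419.5 RPKM in the *dbp1Δ* libraries and 10932 and 10559 RPKM in the wild-type libraries. The *dbp1Δ* replicates stood apart from each other in most of these markers and differed little in *SPS1* and *IME2* only. Of the 10 markers, 8 were higher in *dbp1Δ* replicate 1, and *NDT80* and *SMK1* were lower. The median log2 difference, replicate 1 minus replicate 2, was 0.64 over the 10. *SPS1*, which encodes a sporulation kinase, was at 4032 and 4016 RPKM in *dbp1Δ* replicates 1 and 2. *IME2*, which encodes a meiotic kinase, was at 1739 and 1623 RPKM in them. *IME1*, which encodes the inducer of meiotic entry, was at 1078 and 525 RPKM in *dbp1Δ* replicates 1 and 2, against 696 and 614 RPKM in wild type. *NDT80*, which encodes the activator of the middle meiotic genes, ran the other way, at 1272 and 1653 RPKM in *dbp1Δ* replicates 1 and 2, against 1609 and 1607 RPKM in wild type. For this reason the proteasome results below are given for each *dbp1Δ* library as well as for the genotype.

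The proteasome subunits were translated at a high and narrow level in all 4 libraries. Every subunit lay between the 78.2 and 95.4 percentile of all 5371 ORFs in every library. Single values ran from 117 RPKM (*RPT4* in *dbp1Δ* replicate 2) to 660.4 RPKM (*PRE4* in *dbp1Δ* replicate 1). Each value rested on 261 to 7005 reads. The mean over the 32 subunits was 343 and 260.4 RPKM in *dbp1Δ* replicates 1 and 2, against 298 and 295 RPKM in wild-type replicates 1 and 2. Together the subunits took 1.10% and 0.816% of the mapped reads in the *dbp1Δ* libraries and 0.938% and 0.934% in the wild-type libraries. By genotype the mean was 302 ± 58.4 RPKM in *dbp1Δ* cells and 296 ± 2.02 RPKM in wild-type cells (SD, n = 2 each), so the genotype means differed by less than the spread of the *dbp1Δ* replicates.

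**Figure D1:**
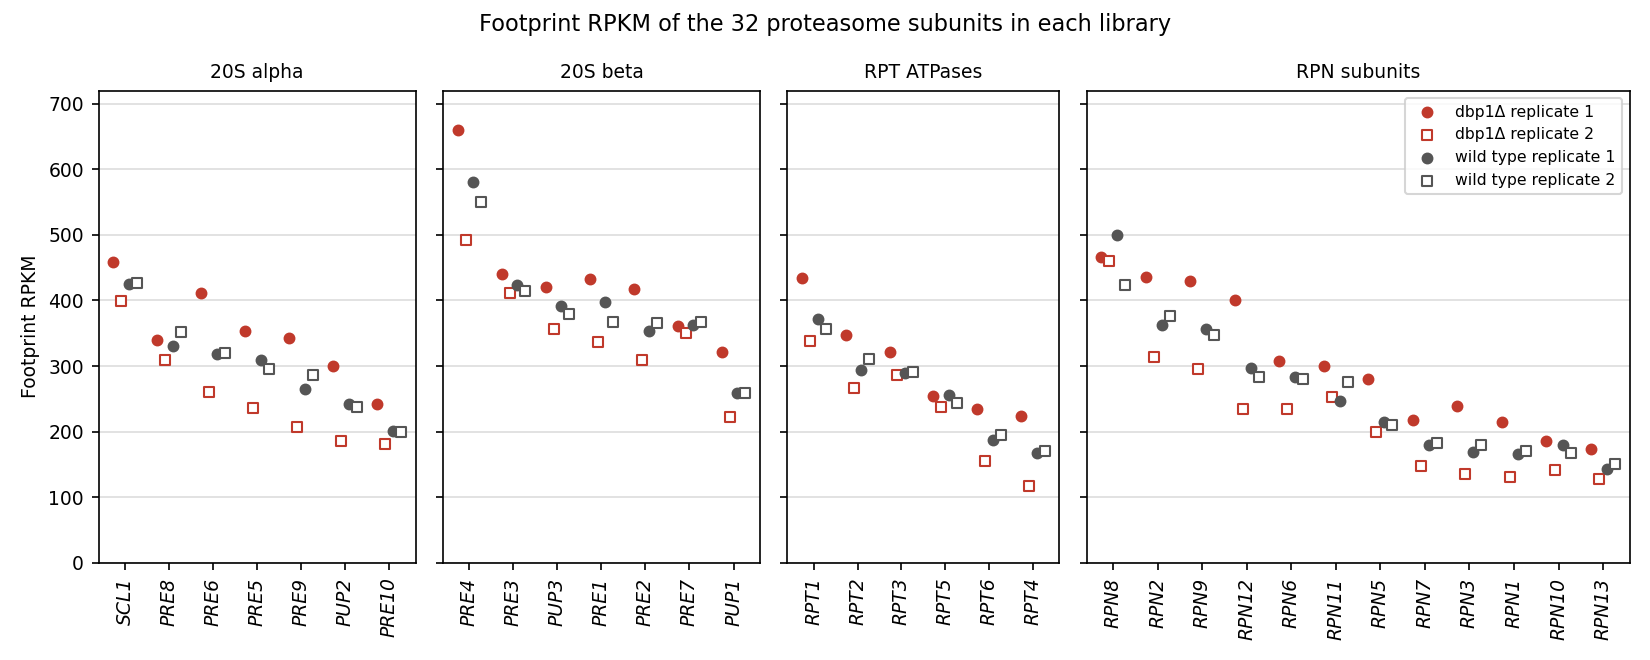
Footprint level of each proteasome subunit (vertical axis, RPKM, linear scale from 0) in *dbp1Δ* replicates 1 and 2 (red, filled and open) and wild-type replicates 1 and 2 (grey, filled and open). Each subcomplex has 1 panel, with subunits ordered by mean RPKM over the libraries. The grey symbols lie close together, and the filled red symbol is above the open red one for all 32 subunits.

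The alpha subunits, which form the outer rings and the gate of the core, averaged 349.9 and 254 RPKM in the *dbp1Δ* libraries and 299 and 302 RPKM in wild type. *SCL1* (YGL011C), the alpha1 subunit, was the highest of the 7 in every library, at 459 and 399 RPKM in *dbp1Δ* replicates 1 and 2, against 426 and 426 RPKM in wild type. *PRE10* (YOR362C), the alpha7 subunit, was the lowest in every library, at 243 and 181 RPKM in the *dbp1Δ* libraries, against 202 and 199.9 RPKM in wild type. Both subunits were highest in *dbp1Δ* replicate 1 and lowest in *dbp1Δ* replicate 2, with the wild-type libraries in between. The same arrangement held for *PRE6* (alpha4), *PUP2* (alpha5), *PRE5* (alpha6) and *PRE9* (alpha3), the last being the only core subunit that yeast can live without. *PRE9* had 343 and 208 RPKM in the *dbp1Δ* libraries, against 265 and 287 RPKM in wild type. *PRE8* (YML092C, alpha2) was the exception, at 340 and 309 RPKM in the *dbp1Δ* libraries, against 331 and 351 RPKM in wild type, where the second wild-type library was the highest of the 4.

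The beta subunits, which line the inner chamber, had the highest mean level of the subcomplexes, at 436 and 354 RPKM in the *dbp1Δ* libraries and 395 and 386 RPKM in the wild-type libraries. The 3 beta subunits with proteolytic activity did not share a level. *PRE3* (YJL001W, beta1, caspase-like activity) had 441 and 411 RPKM in the *dbp1Δ* libraries, against 423 and 414 RPKM in wild type. *PUP1* (YOR157C, beta2, trypsin-like activity) had 321 and 222 RPKM in the *dbp1Δ* libraries, against 259 and 259 RPKM in wild type, and was the lowest beta subunit in every library. *PRE2* (YPR103W, beta5, chymotrypsin-like activity) had 417 and 309 RPKM in the *dbp1Δ* libraries, against 353 and 366 RPKM in wild type. The catalytic subunits thus stood in the order *PRE3*, *PRE2*, *PUP1* in all 4 libraries. The 95% counting intervals of *PRE2* and *PUP1* did not touch in any of them. Those of *PRE3* and *PRE2* overlapped in *dbp1Δ* replicate 1 and were apart in the other libraries.

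Of the beta subunits without a proteolytic site, *PRE4* (YFR050C, beta7) stood above all others. It had 660.4 and 492 RPKM in *dbp1Δ* replicates 1 and 2, against 579.9 and 549.5 RPKM in wild type, and was the highest of all 32 subunits in every library. Its counting intervals were 636 to 685 RPKM and 470.1 to 516 RPKM in the *dbp1Δ* libraries, and they did not touch those of the next beta subunit, *PRE3*, in any library. *PUP3* (beta3), *PRE1* (beta4) and *PRE7* (beta6) lay between 337 and 433 RPKM in all libraries, and the intervals of *PUP3* and *PRE1* overlapped in all 4. *PRE7* differed least of the 7 between the *dbp1Δ* replicates, at 361 and 349.8 RPKM in *dbp1Δ* replicates 1 and 2, against 363 and 367 RPKM in wild type.

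The RPT ATPases averaged 303 and 234 RPKM in the *dbp1Δ* libraries and 261 and 262 RPKM in the wild-type libraries. *RPT1* (YKL145W) was the highest in every library, at 435 and 338 RPKM in the *dbp1Δ* libraries, against 372 and 357 RPKM in wild type. *RPT4* (YOR259C) was the lowest in every library, at 224 and 117 RPKM in the *dbp1Δ* libraries, from 1627 and 732 reads, against 167 and 169.9 RPKM in wild type, from 1111 and 984 reads. No subunit of the proteasome differed more between the *dbp1Δ* replicates than *RPT4* (1.91-fold), while its wild-type replicates were almost equal. *RPT5*, one of the ATPases whose tail docks into the alpha ring, kept close to 1 level, at 254 and 238 RPKM in the *dbp1Δ* libraries, against 256 and 244 RPKM in wild type. *RPT2* and *RPT3*, which also dock into the alpha ring, had overlapping counting intervals in all 4 libraries, and *RPT6* ranked just above *RPT4* in each.

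The RPN subunits averaged 305 and 223 RPKM in the *dbp1Δ* libraries and 258 and 254 RPKM in wild type. As a ratio of the highest subunit to the lowest, their levels spanned the widest range of the 4 subcomplexes. *RPN8* (YOR261C), the lid subunit that pairs with the deubiquitinase Rpn11, was the highest in every library, at 466 and 460.5 RPKM in the *dbp1Δ* libraries, against 499.7 and 424 RPKM in wild type. *RPN11* itself (YFR004W) had 301 and 253 RPKM in the *dbp1Δ* libraries, against 247 and 276 RPKM in wild type. The lid partners were thus not at 1 level, and *RPN8* was the only subunit whose counting intervals were apart between the wild-type replicates (480.3 to 520 RPKM and 405 to 443 RPKM in replicates 1 and 2).

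The ubiquitin receptors of the regulatory particle were the lowest RPN subunits by mean level. *RPN13* (YLR421C) was the lowest of the 12 in every library, at 174 and 128 RPKM in the *dbp1Δ* libraries, against 144 and 151 RPKM in wild type. *RPN10* (YHR200W) had 186 and 142 RPKM in the *dbp1Δ* libraries, against 179 and 168 RPKM in wild type. *RPN1*, the receptor that also docks shuttle proteins, had 215 and 131 RPKM in the *dbp1Δ* libraries, against 166 and 170.1 RPKM in wild type. *RPN2*, the large base subunit to which Rpn13 binds, by contrast held rank 2 of the 12 in every library, at 436 and 313 RPKM in the *dbp1Δ* libraries, against 363 and 376 RPKM in wild type. The remaining lid subunits filled the range in between. *RPN9* and *RPN12* were the next highest by mean level, *RPN6*, which braces the lid against the core, and *RPN5* stood in the middle, and *RPN7* and *RPN3* were low, with counting intervals that overlapped each other in all libraries but *dbp1Δ* replicate 1, where *RPN3* was higher. *RPN3* had 239.8 and 135 RPKM in the *dbp1Δ* libraries, against 169 and 179.98 RPKM in wild type.

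Loss of *DBP1* was tested first across all ORFs, with limma on log2(RPKM + 0.5), a scale that understates the change of weakly expressed genes. None of the 32 proteasome subunits passed an adjusted p of 0.05, where 0.0375% of the 5338 tested ORFs did (2 ORFs, *DBP1* and YPL119C-A, the second named after its values were seen). None passed at an unadjusted p of 0.05 either, against 1.67% of all tested ORFs. The log2 fold changes of the subunits, *dbp1Δ* over wild type, ran from -0.10 to 0.16 with a median of 0.01, beside a median of -0.03 over all tested ORFs. Their 95% intervals reached from -0.69 at the lowest (*RPT4*) to 0.63 at the highest (*RPN12*), and some were narrower, such as that of *PRE7* (-0.37 to 0.29). For each subunit, changes within its own interval were not excluded by these libraries. With 2 libraries against 2, the smallest two-sided p of an exact permutation test is 0.333, and none was made.

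The largest positive estimates belonged to lid subunits. *RPN5* (YDL147W) had 281 and 199.7 RPKM in the *dbp1Δ* libraries, against 215 and 209.9 RPKM in wild type, a log2 fold change of 0.16 (SE 0.19, interval -0.28 to 0.60). *RPN12* (YFR052W), at 400.3 and 235 RPKM in the *dbp1Δ* libraries and 297 and 283 RPKM in wild type, and *RPN11* each had a log2 fold change of 0.08. In *RPN5* and *RPN12* 1 *dbp1Δ* library lay above and the other below both wild-type libraries, and in *RPN11* *dbp1Δ* replicate 1 was the highest and replicate 2 lay between the wild-type libraries. The largest negative estimate was that of *RPN10* (log2 fold change -0.10, SE 0.18, interval -0.51 to 0.31). *PRE8* and *RPN6* followed at -0.07 each, *RPN6* (YDL097C) with 307 and 234 RPKM in the *dbp1Δ* libraries, against 283 and 280.3 RPKM in wild type. All 32 adjusted p-values of limma were 0.9998.

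The groups overlapped for nearly every subunit. Both *dbp1Δ* libraries were above both wild-type libraries for 0 of 32 subunits, against 9.59% of all tested ORFs. Both were below for 1 of 32, *PRE7*, against 15.3% of all tested ORFs, and the log2 fold change of *PRE7* was -0.04.

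**Figure D2:**
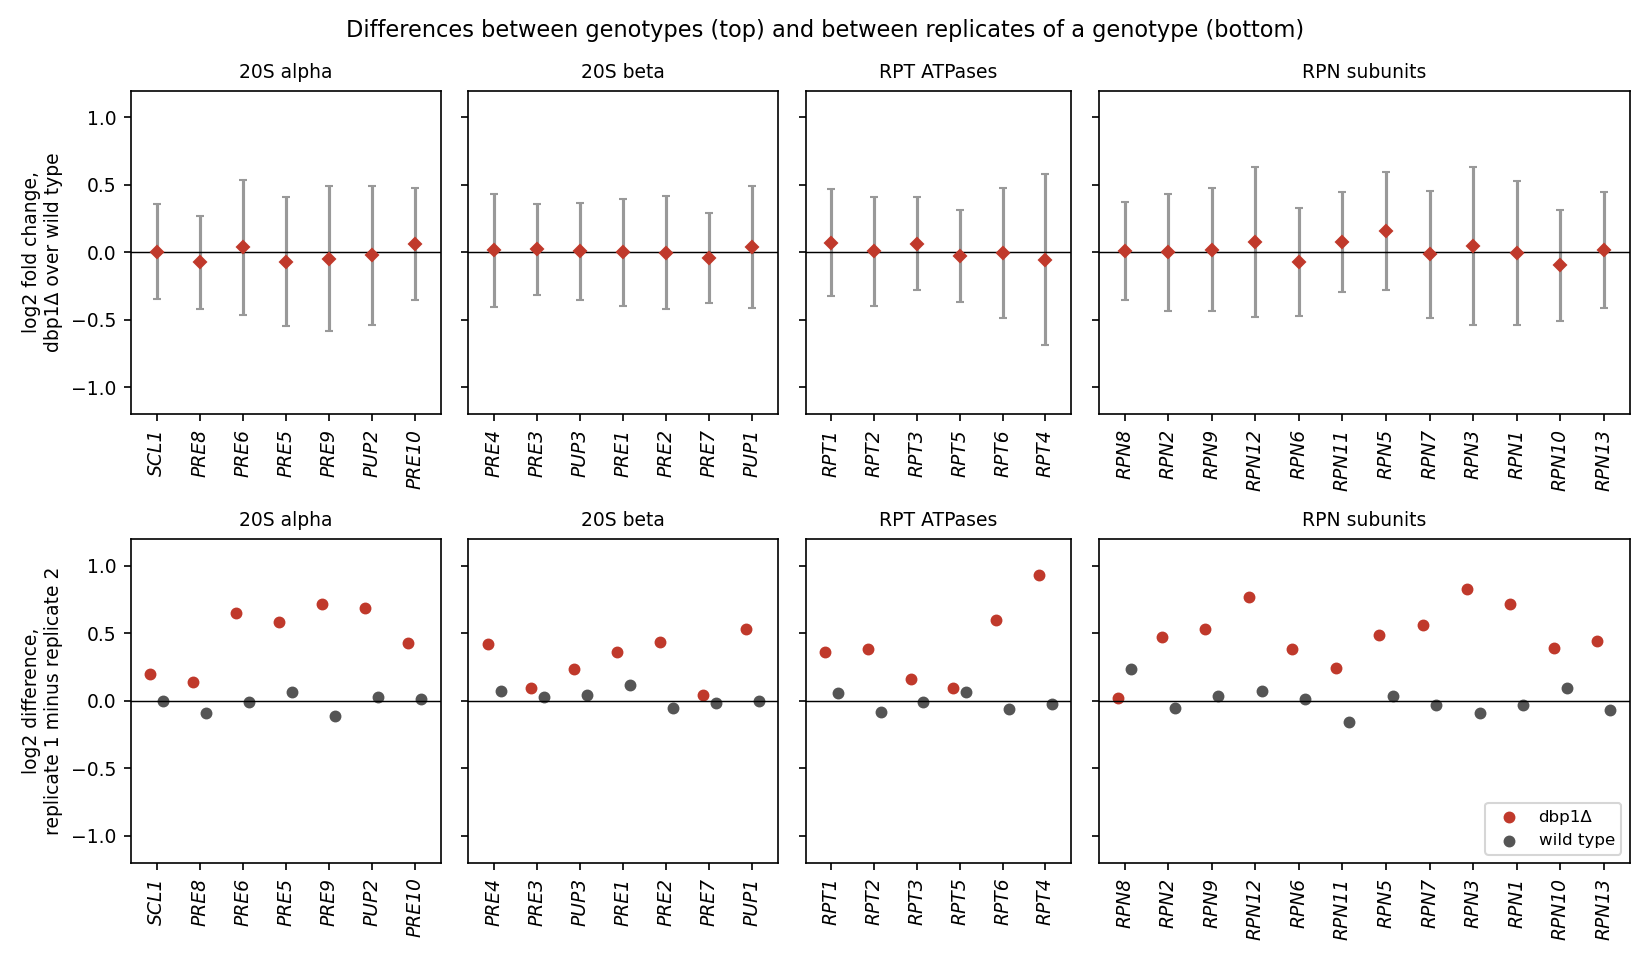
Top, log2 fold change of each proteasome subunit, *dbp1Δ* over wild type, with its 95% interval from limma. Bottom, log2 difference between replicates 1 and 2 within *dbp1Δ* (red) and within wild type (grey). The fold changes lie between -0.10 and 0.16, whereas the *dbp1Δ* replicates differ by up to 0.93 and the wild-type replicates by no more than 0.24.

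The *dbp1Δ* replicates differed from each other in the same direction for the whole complex. All 32 subunits had a higher RPKM in *dbp1Δ* replicate 1 than in replicate 2, against 54.4% of all tested ORFs and 36.7% of the 1313 ORFs that averaged 100 RPKM or more. The log2 difference between these replicates had a median of 0.43 over the subunits (range 0.02 to 0.93), beside 0.05 over all tested ORFs and -0.14 over these more highly expressed ORFs. In the wild-type libraries 16 of 32 subunits were higher in replicate 1, against 52.2% of all tested ORFs, and the median log2 difference was -0.00 (range -0.16 to 0.24).

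In size, 23 of 32 subunits were higher in *dbp1Δ* replicate 1 by a log2 difference of at least 0.25. The share was 34.1% of all tested ORFs and 20% of the ORFs that averaged 100 RPKM or more. Between the wild-type replicates 0 of 32 differed that much in either direction, against 23.7% of all tested ORFs. Most of those ORFs were at lower levels than the subunits, and no share at a like level was computed for wild type. Counting error did not cover the difference in most subunits: the 95% intervals of the *dbp1Δ* replicates were apart, with replicate 1 higher, for 27 of 32 subunits, against 20.6% of the 4644 ORFs whose reads could be counted. The other 5 were *PRE8*, *PRE3*, *PRE7*, *RPT5* and *RPN8*. Between the wild-type replicates the intervals were apart for 1 of 32, *RPN8*, against 6.48% of ORFs. These intervals cover counting error only, and leave out variation between cultures and between library preparations. They may also be too narrow, since reads copied by PCR are not independent molecules.

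Set against wild type, 1 *dbp1Δ* library was high and the other low. *dbp1Δ* replicate 1 was the highest and replicate 2 the lowest of the 4 libraries for 27 of 32 subunits, against 21.2% of all tested ORFs. The count was 6 of 7 for the alpha subunits, 6 of 7 for the beta subunits, 5 of 6 for the RPT subunits and 10 of 12 for the RPN subunits. The median subunit was 0.23 above the wild-type mean in *dbp1Δ* replicate 1 and -0.21 from it in *dbp1Δ* replicate 2 on the log2 scale, where the medians over all tested ORFs were 0.00 and -0.04. The fit without *dbp1Δ* replicate 2 called 5 of 32 subunits (*PRE6*, *RPN12*, *RPN3*, *RPN5* and *RPT4*, all higher in *dbp1Δ*), against 9.7% of all tested ORFs, and 20 of 32 passed an unadjusted p of 0.05, against 30.6%. The fit without *dbp1Δ* replicate 1 called 0 of 32, against 0.0187%, and 17 of 32 passed an unadjusted p of 0.05, against 9.57%.

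The difference between the *dbp1Δ* replicates was not of 1 size throughout the complex. Its median on the log2 scale was 0.59 for the alpha subunits, 0.36 for the beta subunits, 0.37 for the RPT subunits and 0.48 for the RPN subunits. Behind *RPT4* (0.93) came *RPN3* (0.83), *RPN12* (0.77), *PRE9* (0.72) and *RPN1* (0.72), and the smallest differences were those of *RPN8* (0.02), *PRE7* (0.04), *RPT5* (0.10) and *PRE3* (0.10). The 16 subunits with the lowest wild-type levels had a median difference of 0.55, and the 16 with the highest wild-type levels one of 0.36. Across the 32 subunits, which share the same libraries and are not independent, the correlation of the difference with the wild-type log2 level was r = -0.535, and that with log2 ORF length r = 0.263. Most meiotic markers moved with this difference too: 8 of the 10 were higher in *dbp1Δ* replicate 1, against 54.4% of all tested ORFs. The markers had a median of 0.64 on the log2 scale. Their part in the proteasome result was not tested.

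The proteasome was not alone in this difference. The 8 subunits of CCT, the ring-shaped chaperonin that folds actin and tubulin, were also all higher in *dbp1Δ* replicate 1, by a median of 0.44 on the log2 scale (range 0.18 to 0.88). Of 10 subunits of the RNA exosome, 9 were higher in it, by a median of 0.25. Over all tested ORFs the share higher in it was 54.4%, and the median was 0.05.

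The footprint levels of the subunits were closest to each other within the alpha and beta sets and least close within the RPN set. Evenness was measured in each library as the SD of log2(RPKM + 0.5) among subunits, which is lower for a more even set, and is a description with no test. The SD averaged 0.354 ± 0.047 for the alpha subunits, 0.336 ± 0.018 for the beta subunits, 0.450 ± 0.091 for the RPT subunits and 0.540 ± 0.046 for the RPN subunits (SD over 4 libraries). The highest subunit exceeded the lowest by 1.89 to 2.21-fold among the alpha, 2.06 to 2.24-fold among the beta, 1.94 to 2.88-fold among the RPT and 2.68 to 3.60-fold among the RPN subunits. Over all 32 the SD was 0.45 and 0.57 in the *dbp1Δ* libraries and 0.51 and 0.48 in the wild-type libraries. The RPN subunits by themselves were less even than the 32 together in every library. Their SD was 0.50 and 0.60 in the *dbp1Δ* libraries and 0.56 and 0.51 in wild type. The ORFs that averaged 100 RPKM or more had an SD of 1.46 and 1.45 in the *dbp1Δ* libraries and 1.43 and 1.43 in the wild-type libraries. The CCT and exosome subunits, chosen for comparison after their values were seen, were less even but also lower in level. The median subunit averaged 67.5 RPKM over the 4 libraries in CCT and 25.6 RPKM in the exosome, against 298 RPKM in the proteasome. The SD among CCT subunits was 0.79 and 0.89 in the *dbp1Δ* libraries and 0.91 and 0.91 in wild type. That among exosome subunits was 1.35 and 1.48 in the *dbp1Δ* libraries and 1.40 and 1.35 in wild type. The exosome value rested largely on *RRP43*, at 369 and 329 RPKM in the *dbp1Δ* libraries and 318 and 321 RPKM in wild type, where the other exosome subunits lay between 10.6 and 62.6 RPKM.

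The *dbp1Δ* library with the lower proteasome level was also the less even. *dbp1Δ* replicate 2 had the highest SD of the 4 libraries in each subcomplex, and *dbp1Δ* replicate 1 the lowest in the alpha, RPT and RPN subunits. This was not particular to the proteasome. Over all tested ORFs the SD was 2.20 and 2.31 in *dbp1Δ* replicates 1 and 2, against 2.27 and 2.27 in wild type. Over the ORFs that averaged 100 RPKM or more, *dbp1Δ* replicate 2 was not the highest. The SD among alpha subunits was 0.30 and 0.41 in *dbp1Δ* replicates 1 and 2, against 0.35 and 0.36 in wild type. Among RPT subunits it was 0.37 and 0.58 in the *dbp1Δ* libraries, against 0.43 and 0.41 in wild type. Among RPN subunits it was 0.50 and 0.60 in the *dbp1Δ* libraries, against 0.56 and 0.51 in wild type. The beta subunits varied least, with 0.32 and 0.36 in the *dbp1Δ* libraries, against 0.35 and 0.32 in wild type. By genotype the RPT value was 0.477 ± 0.148 in *dbp1Δ* and 0.422 ± 0.015 in wild type (SD, n = 2 each), a difference within the spread of the *dbp1Δ* replicates. Within the RPN set, the 8 lid subunits had an SD of 0.40 and 0.56 in the *dbp1Δ* libraries and 0.52 and 0.44 in wild type. *RPN1*, *RPN2*, *RPN10* and *RPN13* had 0.61 and 0.62 in the *dbp1Δ* libraries and 0.59 and 0.61 in wild type.

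**Figure D3:**
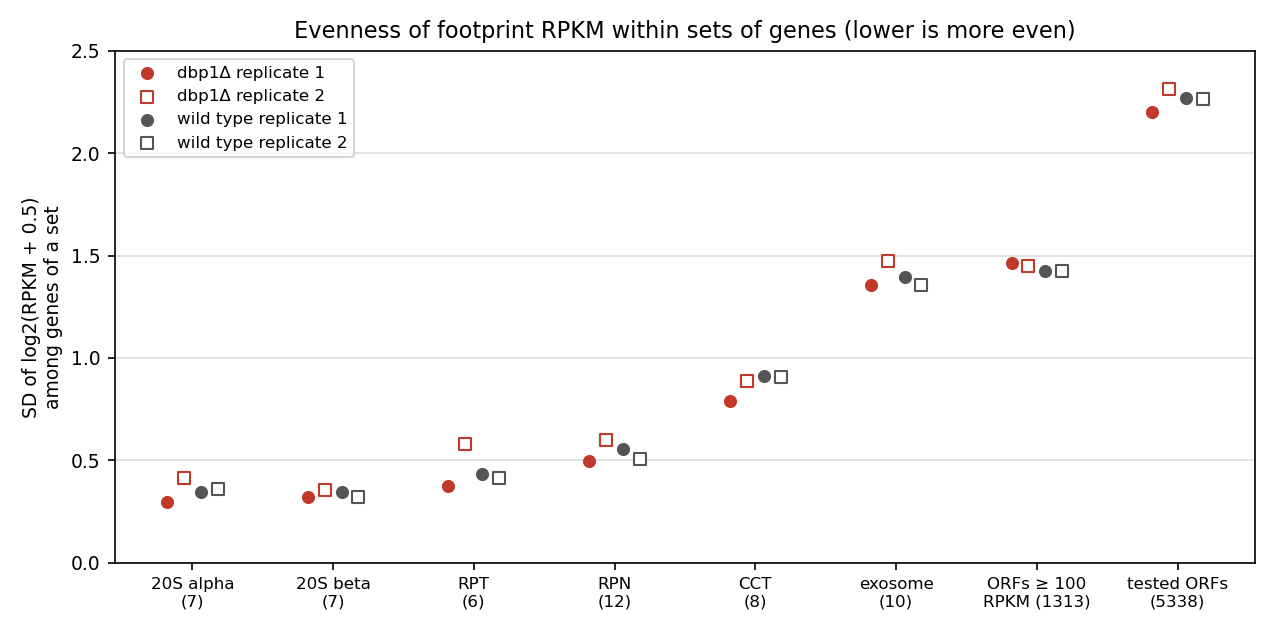
SD of log2(RPKM + 0.5) among the genes of a set (vertical axis) in *dbp1Δ* replicates 1 and 2 (red) and wild-type replicates 1 and 2 (grey), with the number of genes under each set. The 4 proteasome subcomplexes lie between 0.30 and 0.60, the CCT and exosome subunits higher, and the open red symbol of *dbp1Δ* replicate 2 is the highest in every proteasome subcomplex.

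The highest and the lowest subunit of each subcomplex were the same genes in all 4. Ranks in between changed. Of neighbours in the order by mean level, *PUP3* and *PRE1*, and *RPT2* and *RPT3*, had overlapping counting intervals in every library. For 3 other pairs the intervals were apart against the mean order in *dbp1Δ* replicate 1. There *PRE8* (322 to 359 RPKM) was below *PRE6* (391.7 to 431 RPKM), *PRE7* (342 to 380.2 RPKM) was below *PRE2* (399 to 436 RPKM), and *RPN7* was below *RPN3*. In *dbp1Δ* replicate 2 the intervals were apart the other way for *PRE8* (290.3 to 328 RPKM) over *PRE6* (244 to 279 RPKM) and for *PRE7* (329.9 to 370.5 RPKM) over *PRE2* (292 to 327 RPKM). Intervals were apart in all 4 libraries between *SCL1* and *PRE8*, *PRE4* and *PRE3*, *PRE2* and *PUP1*, *RPT1* and *RPT2*, *RPT3* and *RPT5*, *RPN8* and *RPN2*, and *RPN5* and *RPN7*. *PRE8* changed rank most among the alpha subunits, at rank 5 in *dbp1Δ* replicate 1 and rank 2 in each of the other 3 libraries. Over the 32 subunits the log2 levels of the *dbp1Δ* replicates correlated with r = 0.919, those of the wild-type replicates with r = 0.989, and pairs of 1 *dbp1Δ* and 1 wild-type library with r from 0.962 to 0.979.

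The core was translated at a higher level per subunit than the regulatory particle in all 4 libraries. The 14 core subunits averaged 393 and 304 RPKM in the *dbp1Δ* libraries and 347 and 344 RPKM in the wild-type libraries. The 18 regulatory subunits averaged 304 and 226 RPKM in the *dbp1Δ* libraries and 259 and 256 RPKM in the wild-type libraries. The ratio of core to regulatory subunits was 1.29 and 1.34 in the *dbp1Δ* libraries and 1.34 and 1.34 in the wild-type libraries (1.33 ± 0.024 over all 4, SD). Unlike the level itself, the ratio varied little between the *dbp1Δ* replicates, whose difference had a median of 0.42 in the core and 0.46 in the regulatory particle on the log2 scale.

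Around the complex, *RPN4*, whose product activates proteasome genes and is itself a short-lived proteasome substrate, had 114.7 and 89.6 RPKM in the *dbp1Δ* libraries, against 114 and 115 RPKM in wild type (log2 fold change -0.17, interval -0.58 to 0.23). Its level in *dbp1Δ* replicate 1 was close to both wild-type libraries, and that in *dbp1Δ* replicate 2 was below them. *SEM1*, a small lid subunit that is outside the 32, had 737 and 639.9 RPKM in the *dbp1Δ* libraries, against 618 and 596 RPKM in wild type. Both *dbp1Δ* libraries were above both wild-type libraries, but its log2 fold change of 0.18 (interval -0.18 to 0.53) did not pass the test.

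The 9 assembly chaperones, which build the complex and leave it, were for the most part far below the subunits. *UMP1*, which is shut into the core and is degraded as it matures, was the exception, at 466 and 306 RPKM in the *dbp1Δ* libraries, against 383 and 368 RPKM in wild type, the same arrangement as in most beta subunits. The other 8 chaperones ran from 3.64 to 106 RPKM. The first *dbp1Δ* library exceeded the second in 3 of the 9 (median -0.10 on the log2 scale), against 54.4% of all tested ORFs. None of the 9 passed the adjusted threshold. The largest estimates belonged to the partners of 1 alpha-ring chaperone: *PBA1* had a log2 fold change of 0.14 (40.6 and 42.0 RPKM in *dbp1Δ*, 37.7 and 37.3 RPKM in wild type) and *ADD66* one of -0.13 (85.9 and 91.9 RPKM in *dbp1Δ*, 100.3 and 94.9 RPKM in wild type).

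Of 10 proteins that bind the proteasome or bring substrates to it, a list that also held the lid subunit *SEM1*, none passed the test. *STS1*, needed to target proteasomes to the nucleus, had the highest estimate, 0.21, at 80.8 and 65.7 RPKM in the *dbp1Δ* libraries, against 62.5 and 63.7 RPKM in wild type. *FUB1*, which encodes a core-binding protein, had the lowest, -0.11, at 80.3 and 90.8 RPKM in the *dbp1Δ* libraries, against 85.5 and 99.7 RPKM in wild type. *BLM10*, which encodes an alternative cap of the core, was low, at 15.8 and 11.3 RPKM in the *dbp1Δ* libraries, against 12.8 and 10.4 RPKM in wild type. In 9 of these 10 genes the first *dbp1Δ* library exceeded the second, against 54.4% of all tested ORFs. The median difference was 0.31 on the log2 scale.

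None of 5 genes of the ubiquitin system passed the test. In all 5 the first *dbp1Δ* library exceeded the second (median of 0.43 on the log2 scale), against 54.4% of all tested ORFs. *UBA1*, which encodes the ubiquitin-activating enzyme, had the highest estimate, a log2 fold change of 0.28 (interval -0.27 to 0.82), at 178.7 and 107 RPKM in the *dbp1Δ* libraries, against 112 and 116 RPKM in wild type. *dbp1Δ* replicate 1 was above and replicate 2 below both wild-type libraries. *UFD1*, which encodes a cofactor of the Cdc48 unfoldase, had the lowest, -0.00, at 101.9 and 68.4 RPKM in the *dbp1Δ* libraries, against 87.4 and 79.97 RPKM in wild type.

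**Figure D4:**
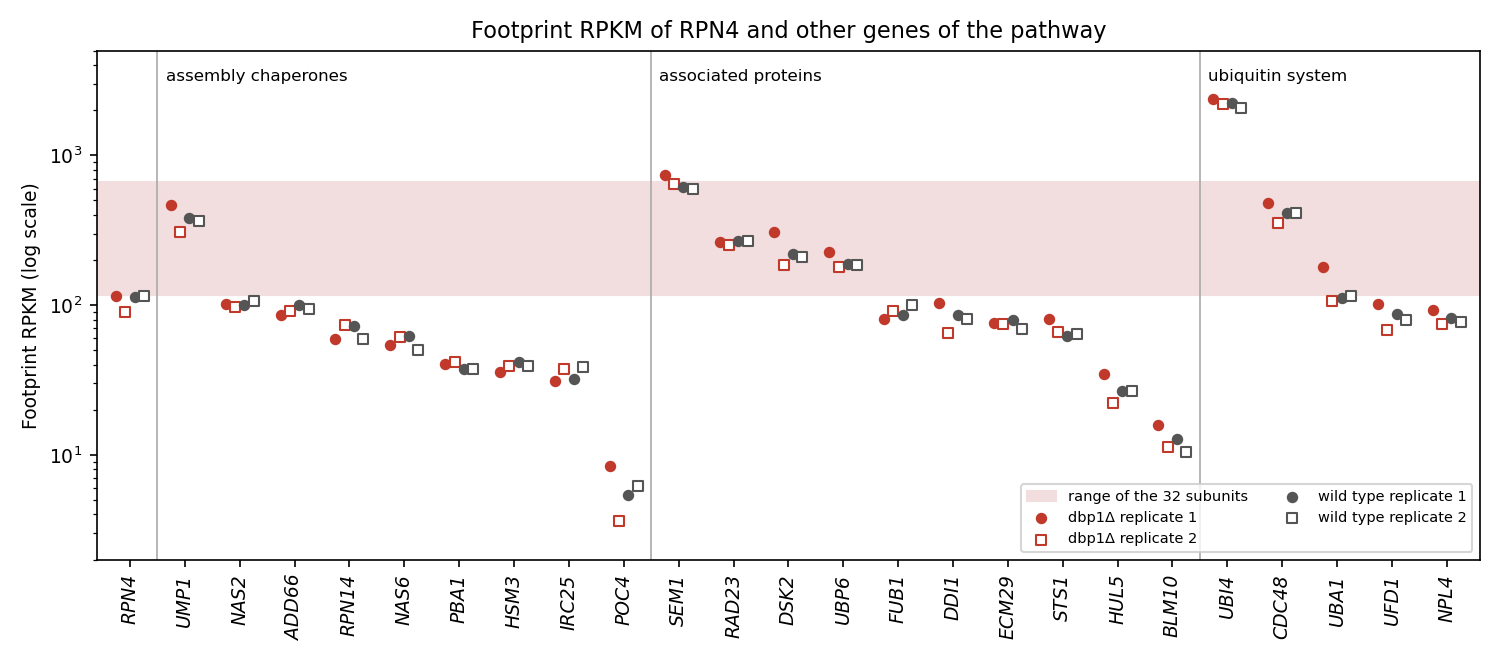
Footprint level (vertical axis, RPKM on a log scale) of *RPN4*, 9 assembly chaperones, 10 associated proteins and 5 genes of the ubiquitin system in *dbp1Δ* replicates 1 and 2 (red) and wild-type replicates 1 and 2 (grey), with the range of the 32 subunits shaded. *UMP1* is the only assembly chaperone inside the shaded range, and *SEM1* lies at its upper edge.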

How the data were processed

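Footprint libraries of 2 *dbp1Δ* and 2 wild-type cultures, labelled as separate replicates, were grouped by their labels. The authors mapped reads to the SK1 genome and deposited footprint RPKM for each library, neither pooled nor scaled between libraries. Bowtie2 is named in the submitters' processing notes, and its version and the annotation are not given in the sources used here. Whole reads and depth were recovered from the RPKM steps: with annotated lengths less 60 nt, 89.2% of values for 5309 ORFs were within 0.05 read of a whole number. Counting intervals are 95% Clopper-Pearson intervals.

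ORFs averaging 1 RPKM or more (5338 of 5371) were tested as log2(RPKM + 0.5) with limma 3.58.1 in R 4.3.3 (lmFit, eBayes with a trend, genotype as the only term), with Benjamini-Hochberg adjustment over all of them. Summaries were made with pandas 2.3.3, numpy 2.4.6 and scipy 1.17.1 under Python 3.11.15, and figures with matplotlib 3.10.9. The fit and the recovery were tested on simulated data. For the fit, the simulated spread of every library was taken from the wild-type replicates, so a wider spread in *dbp1Δ* was not covered.

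The subunits and the gene lists were chosen with earlier results of these data known. By rule, all subunits, *DBP1*, *RPN4*, *SEM1*, *UMP1*, *BLM10* and the highest and lowest fold change of each pathway list were named, with full values for the extremes and the catalytic subunits. Other values shown, and the genes of the comparison lists, were chosen after they were seen. Symbols came from the S288C R64 annotation, in which 5311 of 5371 ORFs matched. No coordinates or sequences are given. Alternatives were other pseudocounts, filters, scalings, a block for the replicate number, limma without a trend, limma voom on recovered reads, other summaries of the subunits and leaving out each library.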

Additional observations from a re-analysis of the deposited data

How the results depend on the processing

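No proteasome subunit was called with a pseudocount of 0.1 or 1, without a filter, with a filter at 10 RPKM, after median centring or quantile normalization, without a trend, or by limma voom. With the replicate number as a block, 0 subunits were called as well, while calls over all ORFs went to 25 with the block, against 2 without it. Same-numbered libraries did not deviate together (correlation -0.135), so the numbers were not taken as pairs. A crossed pairing, added after the data were seen, called 0 subunits and 28 ORFs. Leaving out 1 library gave 0 to 5 subunits called and a median subunit log2 fold change of -0.21 to 0.23. All 5 calls came without *dbp1Δ* replicate 2, where the lone library is assumed to vary like the other genotype, and the log2 fold change of *RPT4*, -0.06 over all libraries, then reversed to 0.41 (limma adjusted p = 0.0363). Over the fits that leave out 1 library it ran from -0.52 to 0.41. Of the uncalled estimates, 4 changed sign under median centring, 6 under quantile normalization and 6 under voom. Evenness without the farthest subunit was 0.282 for the alpha subunits (without *SCL1*), 0.241 for the beta subunits (without *PRE4*) and 0.473 for the RPN subunits (without *RPN8*). The ratio of core to regulatory subunits was 1.36 with geometric means and 1.29 with full ORF lengths. With 2 libraries per genotype, and *dbp1Δ* replicates that differed in every subunit, changes within the intervals given could not be detected, and no outlier test was possible in groups of 2.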
